A study of Mus musculus with 8 samples.

Results

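The Wnt pathway genes described here were chosen by name, as all genes with an array probe whose symbol was Wnt, Fzd, Sfrp or Dkk followed by a digit, together with 24 named receptors, transducers, nuclear factors and inhibitors. They comprised 79 of the 25697 probes, for 56 genes. Axin1, Tcf7 and Lgr4, which the rule also names, had no probe under their symbol in the annotation used here. The study transfected mouse bone marrow mesenchymal stem cells (MSCs) with Myc-L63RhoA, a constitutively active form of the small GTPase RhoA carrying a Myc tag, or with empty vector (EV), and hybridized their RNA to Illumina MouseRef-8 v2.0 BeadChips. There were 4 L63RhoA arrays and 4 EV arrays. Cells of both groups were at passage 6 and came from the same purchased stock, and both groups were exposed to the lipid transfection reagent. The sample records place RNA extraction 48 h after transfection, whereas the methods give 3 days. The share of cells that took up the plasmid is not given in the sources used here, so each value is an average over transfected and untransfected cells. The study's design speaks of 4 independent experiments without saying whether samples with the same replicate number belong to the same one.

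Wnt proteins are secreted lipid-modified ligands. The enzyme porcupine (Porcn) attaches the lipid, and the ligands bind Frizzled (Fzd) receptors together with the co-receptors Lrp5 and Lrp6 or with the receptor tyrosine kinase Ror2. In the canonical branch, Dishevelled (Dvl) proteins then block a destruction complex of axin, Apc and Gsk3b, so that β-catenin accumulates and acts on genes through Tcf and Lef factors. In the non-canonical branch, Dvl, Daam1 and Vangl proteins connect the receptors to the cytoskeleton and cell polarity. In bone marrow MSCs, canonical Wnt signalling is known to favour bone formation over fat formation.

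Promoters of the members were taken from RefSeq (build GRCm38.p6, 250 bases before to 50 after a gene's start), where 39 of the 56 genes had an entry. The promoters of Nkd2, the member nearest the significance threshold, and of Wnt6, a ligand among the 5 with the smallest p, are printed whole, in lower case and 5′ to 3′ on the gene's strand. Nkd2 lies at chr13:73847582-73847881 on the minus strand and Wnt6 at chr1:74771642-74771941 on the plus strand.
Nkd2: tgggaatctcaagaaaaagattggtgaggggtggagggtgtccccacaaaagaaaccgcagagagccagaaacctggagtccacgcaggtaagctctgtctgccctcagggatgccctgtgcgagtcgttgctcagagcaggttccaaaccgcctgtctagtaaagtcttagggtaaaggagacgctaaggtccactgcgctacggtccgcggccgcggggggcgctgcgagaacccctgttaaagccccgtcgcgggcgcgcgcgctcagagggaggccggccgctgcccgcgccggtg
Wnt6: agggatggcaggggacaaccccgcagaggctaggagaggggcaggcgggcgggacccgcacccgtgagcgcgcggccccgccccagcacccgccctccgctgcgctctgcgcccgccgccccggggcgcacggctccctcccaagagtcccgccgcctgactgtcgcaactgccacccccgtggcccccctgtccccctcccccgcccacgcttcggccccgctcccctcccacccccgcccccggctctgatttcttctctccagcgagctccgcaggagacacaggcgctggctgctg
The TCF/LEF motif was searched on both strands as CTTTG followed by 2 letters that are each A or T. Neither of these promoters held it. Among 18 promoters of 14 tested members, 3 held it (16.7%), against 5544 of all 32851 promoters (16.9%). The windows around the 3 matches are printed with the motif in capitals, at chr1:59481997-59482043 (plus strand, motif on the other strand), chr6:119449431-119449477 (minus strand) and chr19:55895287-55895333 (plus strand).
Fzd7: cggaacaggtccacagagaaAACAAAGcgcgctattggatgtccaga
Wnt5b: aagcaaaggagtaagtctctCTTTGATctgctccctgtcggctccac
Tcf7l2: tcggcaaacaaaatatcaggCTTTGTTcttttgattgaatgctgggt
The CArG box, the sequence that serum response factor binds, was in none of the 18 promoters and in 1.63% of all promoters. These matches describe letters in a window and were not tested for binding.

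L63RhoA arrays had 11925 to 12981 probes with a detection p under 0.05 and mean signals of 320.1 to 349.6, and EV arrays had 12546 to 12928 such probes and mean signals of 273.7 to 377.4. Within the groups, 1 component held 48.2% of the variance. On it L63RhoA replicate 1 (score -8.90) lay with EV replicates 1, 2 and 4 (scores -20.20 to -3.53), and EV replicate 3 (score 9.12) lay with L63RhoA replicates 2 to 4 (scores 13.03 to 15.23). These 2 arrays therefore go against their groups, and results below that rest on them are also given without them. How strongly each gene followed this component correlated at 0.73, sign aside, with its log2 ratio of L63RhoA to EV over all genes tested. The mean score was 8.47 in L63RhoA and -8.47 in EV. The log2 ratios below therefore lie largely along this component, and its part in them was not tested. With all arrays 0.706% of all genes had a limma adjusted p under 0.05, against 15.7% without L63RhoA replicate 1 and 11.4% without EV replicate 3. A gene that passes only when 1 of these arrays is left out is therefore no support for a change. Of 12 mesenchymal marker genes on the array, 10 were detected on all 8 arrays, among them Pdgfra, Nt5e, Vcam1 and Nes, whereas Thy1 and Lepr were detected on none. No probe of 6 haematopoietic markers, including Ptprc and Itgam, was detected on any array. Of 6 endothelial markers, Tek was detected on 4 arrays, Kdr on 5 and Pecam1 on 2, while Cdh5, Tie1 and Emcn were detected on none. The summed background corrected intensity of the 6 endothelial markers was 128.2 to 143.6 in L63RhoA and 116.4 to 125.4 in EV. That of the 6 haematopoietic markers, detected on no array, was 116.1 to 119.0 in L63RhoA and 114.3 to 120.2 in EV. These sums include undetected genes and an offset of 16 for each gene. Tek read 4.54, 4.89, 5.06 and 4.96 in L63RhoA and 4.42, 4.33, 4.49 and 4.31 in EV on the log2 scale. Its EV values all lay below the lowest detected signal of their arrays (4.55, 4.53, 4.57 and 4.55), so Tek entered the test through the L63RhoA arrays alone. Its log2 ratio of L63RhoA to EV (0.47, limma adjusted p = 0.087) is therefore no support for a direction. The part of Tek in the results below was not tested. Rhoa, the mouse gene of the transfected protein, was detected on no array, so expression of the construct could not be checked here.

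Much of the Wnt pathway lay below detection in these MSCs. A gene was tested when 4 or more arrays detected a probe of it, with a detection p below 0.05. This held for 26 of the 56 Wnt genes (46.4%) and for 8360 of all 16593 named genes (50.4%). Of the other 30, 10 were detected on 1 to 3 arrays and 20 on none. In bulk RNA, fewer cells of a type and less RNA per cell cannot be told apart. The shares by role are a description, without a test. Of 12 receptors 9 were tested (75%), namely Fzd1, Fzd2, Fzd3, Fzd6, Fzd7, Fzd8, Lrp5, Lrp6 and Ror2, while Fzd4 and Fzd10 were detected on no array and Ror1 on 1. Of 19 ligands 5 were tested (26.3%), namely Wnt5a and Wnt5b, which are best known for non-canonical signalling, and Wnt6, Wnt10a and Wnt10b, which are known from other mouse mesenchymal cells to hold back fat cell formation. Of 10 secreted antagonists only Sfrp4 was tested (10%). Sfrp1, Sfrp2, Sfrp5, Dkk2, Dkk4 and Frzb were detected on no array, and Dkk1, Dkk3 and Wif1 on 1. Secreted frizzled-related proteins and Wif1 bind Wnt ligands outside the cell, and Dkk1 blocks Lrp5 and Lrp6.

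**Figure D1:**
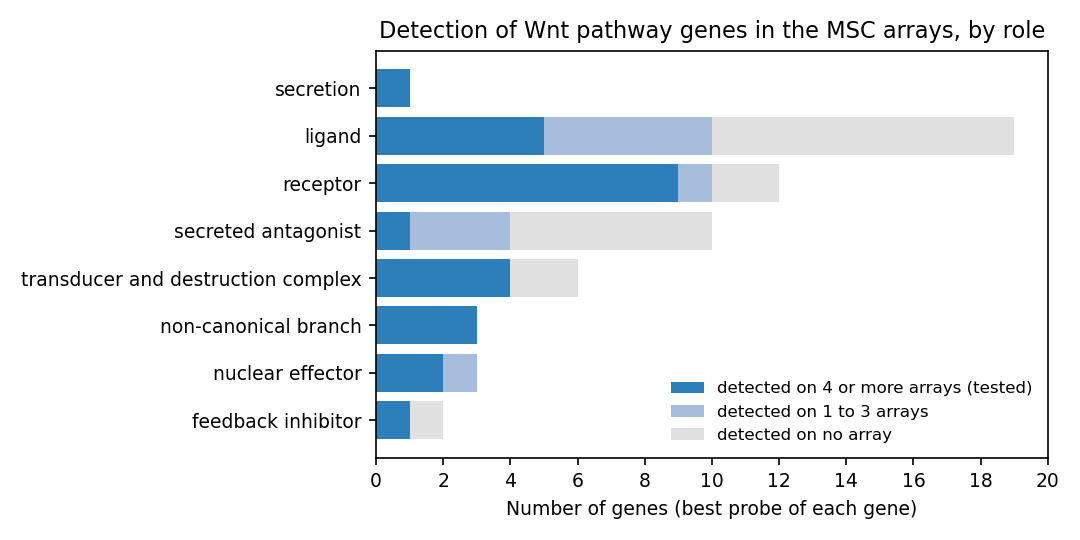
Number of Wnt pathway genes by role (x axis, genes; y axis, role), coloured by the number of the 8 arrays on which the gene's best probe had a detection p under 0.05. The dark bars, the genes that were tested, hold 9 of 12 receptors, 5 of 19 ligands and 1 of 10 secreted antagonists.

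No Wnt gene passed an adjusted p under 0.05 from limma in L63RhoA against EV, where 59 of the 8360 genes tested did (0.706%, with 0.383% higher and 0.323% lower). Without L63RhoA replicate 1 the count was 3 (Dvl1, Nkd2 and Porcn), where 15.7% of all genes passed, and without EV replicate 3 it was 4 (Nkd2, Porcn, Tcf7l1 and Wnt10a), where 11.4% did. Without any one other array it was 0, where 0.206% to 0.342% did. At an unadjusted p under 0.05, 5 of the 26 were higher in L63RhoA and none lower, against 13.7% of all genes higher and 10.7% lower. The study's methods give a t-test for comparing 2 groups in general, and permutations for the arrays. This methods' t-test gave 3 without adjustment, where 1615 of the 8360 genes met it. It gave none after adjustment, where 0.323% of all genes passed. The same 5, Nkd2, Wnt10a, Porcn, Sfrp4 and Wnt6, were the ones with an adjusted p under 0.20, the rate the study used (19.2% of the 26, all higher). Wnt10a, Sfrp4 and Wnt6 met the detection filter on 4 L63RhoA arrays but on only 0, 2 and 2 EV arrays, so the filter favoured their being higher in L63RhoA, and the count is no support for a direction. Without L63RhoA replicate 1 the count at this rate was 13, where 43.2% of all genes met it, without EV replicate 3 it was 10 (38.5%), without EV replicate 1 it was 4 (13.3%), and without any one of the other 5 arrays it was 1 (1.09% to 1.82%). In the fit to all 8 arrays 23.6% of all genes met that rate, 13.1% higher and 10.4% lower, and no Wnt gene also had a fold over 2, as 0.132% of all genes did. The median log2 ratio was 0.11 over the 26 Wnt genes, of which 16 were higher and 10 lower, and 0.01 over all genes tested. The median of the Wnt genes was 0.0168 without EV replicate 3, where that of all genes was 0.0152, and 0.0371 on the authors' processed values. Values per array follow by role, as background corrected and normalized log2 intensities in the order of replicates 1 to 4. They compare a gene with itself, since array probes give no order of levels between genes.

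Nkd2 came closest to the threshold. It encodes a naked cuticle protein that binds Dvl and dampens Wnt signalling. Its log2 intensities were 5.49, 5.45, 5.56 and 5.64 in L63RhoA and 4.93, 5.01, 5.25 and 5.02 in EV. All 4 L63RhoA arrays lay above all 4 EV arrays, with EV replicate 3 the highest of its group. The fold was 1.40 (95% confidence interval, CI, 1.21 to 1.62, log2 ratio 0.48, limma adjusted p = 0.053). Over all 8360 genes 9.93% had groups that did not overlap, 5.2% with L63RhoA above and 4.72% with it below. Among the Wnt genes L63RhoA lay above EV without overlap in Nkd2, Wnt10a and Sfrp4, of which only Nkd2 was detected on every array. Nkd2 passed without L63RhoA replicate 1 (limma adjusted p = 0.021) and without EV replicate 3 (adjusted p = 0.022), and did not pass without any one of the other 6 arrays (adjusted p 0.13 to 0.19). Its probe was dim, and its log2 ratio was 0.16 (limma adjusted p = 0.092) on the authors' processed values, which were made without the background correction used here. The related gene Nkd1 was detected on no array.

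Among the ligands, Wnt10a had the smallest p. It had log2 intensities of 4.77, 4.88, 4.97 and 4.84 in L63RhoA and 4.54, 4.44, 4.54 and 4.35 in EV. It was detected on all 4 L63RhoA arrays and on none of the EV arrays, so its EV value is only a bound and it entered the test through the L63RhoA arrays alone. On the background corrected scale its L63RhoA mean of 4.87 was at least 1.25-fold above EV, taking EV at the lowest detected signal of each array (a mean of 4.55, with a measured mean of 4.47; limma adjusted p = 0.072). This bound holds on that scale only. Without EV replicate 3 Wnt10a passed at an adjusted p of 0.033, and without EV replicate 1, 2 or 4 it did not (adjusted p 0.16 to 0.21). Without any one L63RhoA array it no longer met the detection filter. On the authors' processed values, without that correction, its log2 ratio was 0.11, below the bound.

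Wnt6, the gene next to Wnt10a on chromosome 1, had log2 intensities of 4.84, 4.73, 5.07 and 5.04 in L63RhoA and 4.78, 4.50, 4.79 and 4.49 in EV. The groups overlapped, and it was detected on 4 L63RhoA arrays and 2 EV arrays (log2 ratio 0.28, limma adjusted p = 0.17). Wnt10b, detected on every array, had 7.16, 7.25, 7.31 and 7.50 in L63RhoA and 7.09, 7.12, 7.14 and 7.29 in EV (log2 ratio 0.14, adjusted p = 0.37). Its neighbour Wnt1 was detected on no array.

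Wnt5a had 8.02, 7.60, 7.67 and 7.77 in L63RhoA and 8.001, 7.92, 7.97 and 7.79 in EV by its brighter probe, a log2 ratio of -0.15 (95% CI -0.39 to 0.08, limma adjusted p = 0.39). Its dimmer probe gave 0.15, so its probes differed in direction and neither passed. Wnt5b, with the TCF/LEF motif in 1 of its 3 promoters, had a log2 ratio of 0.13 (95% CI -0.12 to 0.38).

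Porcn had 7.69, 8.24, 8.04 and 8.26 in L63RhoA and 7.73, 7.24, 7.98 and 7.31 in EV by its brighter probe. L63RhoA replicate 1 lay below EV replicates 1 and 3, and every other L63RhoA array lay above every EV array. The log2 ratio was 0.49 (standard error 0.18, limma adjusted p = 0.15), and 0.62 and 0.63 without L63RhoA replicate 1 and without EV replicate 3 (adjusted p = 0.042 and 0.040). Without any one other array Porcn did not pass (adjusted p 0.19 to 0.33). Its dimmer probe, also detected on every array, went the other way, with 4.93, 5.23, 4.92 and 4.83 in L63RhoA and 5.05, 5.16, 5.41 and 5.07 in EV (log2 ratio -0.19, adjusted p = 0.34, adjusted over probes). Wls, which carries finished Wnt ligands to the cell surface, had a log2 ratio of -0.02 (adjusted p = 0.91).

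**Figure D2:**
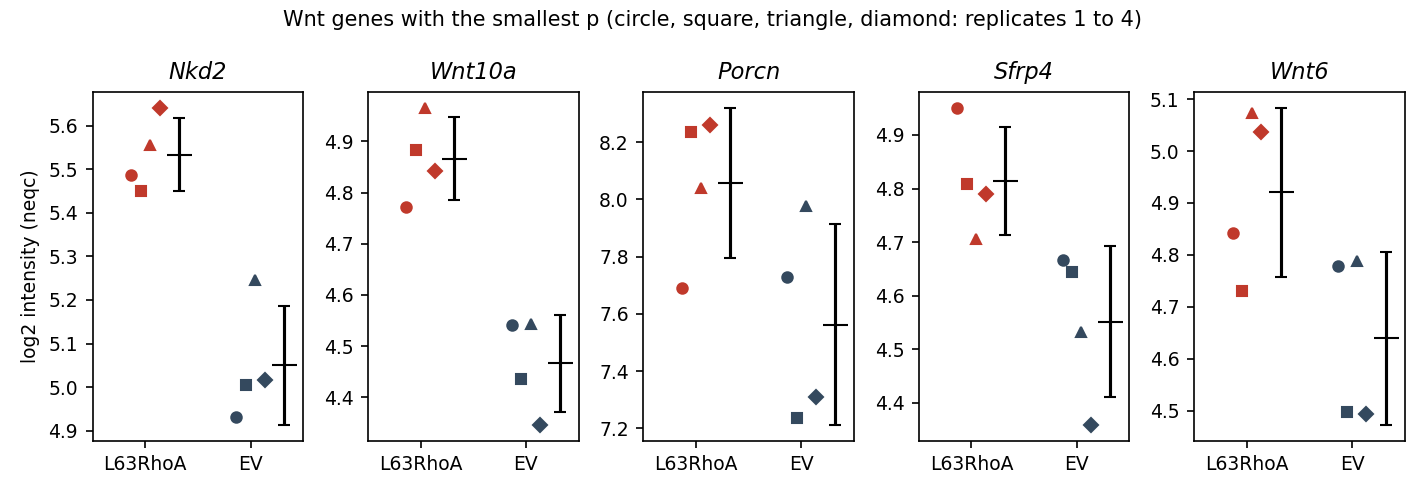
Log2 intensity (y axis, own scale for each gene) of the 5 Wnt genes with the smallest p in the 4 L63RhoA arrays (red, left) and the 4 EV arrays (dark, right), with a marker shape for each replicate number and the mean ± SD in black. The groups do not overlap in Nkd2, Wnt10a and Sfrp4 and do in Porcn and Wnt6, and Wnt10a was detected on no EV array.

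Sfrp4 was the only secreted antagonist tested. Its log2 intensities were 4.95, 4.81, 4.71 and 4.79 in L63RhoA and 4.67, 4.64, 4.53 and 4.36 in EV. The groups did not overlap, but the gap between the lowest L63RhoA array and the highest EV array was small, and the probe was detected on 4 L63RhoA arrays and 2 EV arrays. The fold was 1.20 (95% CI 1.03 to 1.40, limma adjusted p = 0.16). Its log2 ratio was 0.26, or 0.08 on the authors' processed values, and it did not pass an adjusted p of 0.05 under any of the 17 alternatives in which it was tested with adjustment.

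None of the 9 receptors tested had an unadjusted limma p under 0.05, where 24.4% of all genes did. With so few receptors this is a description only. Their log2 ratios spanned -0.22 to 0.29. The highest was that of Ror2, a receptor for Wnt5a, with 5.60, 6.20, 5.98 and 6.29 in L63RhoA and 5.86, 5.76, 5.89 and 5.39 in EV (limma adjusted p = 0.28). L63RhoA replicate 1 was below 3 of the EV arrays, and without it the log2 ratio was 0.43 (adjusted p = 0.060). Without any one other array the adjusted p was 0.20 to 0.57. The lowest was that of Fzd2, with 4.90, 4.43, 4.74 and 4.54 in L63RhoA and 4.78, 4.89, 4.71 and 5.11 in EV (adjusted p = 0.30). Fzd2 was detected on 2 L63RhoA arrays and 4 EV arrays, so the filter favoured its being lower in L63RhoA. In Ror2 and in Fzd2 the groups overlapped. Fzd7, whose promoter held the TCF/LEF motif, had 8.77, 8.49, 8.07 and 8.37 in L63RhoA and 8.61, 8.83, 8.43 and 8.65 in EV (log2 ratio -0.21, adjusted p = 0.39). Fzd1 had 6.22, 6.06, 6.23 and 6.28 in L63RhoA and 6.18, 5.99, 6.00 and 5.98 in EV (log2 ratio 0.16, adjusted p = 0.29). The groups overlapped in both genes. Fzd8 and the co-receptors Lrp5 and Lrp6 lay closest to 0, with log2 ratios of 0.01 (95% CI -0.24 to 0.26), -0.01 (95% CI -0.27 to 0.24) and -0.02 (95% CI -0.28 to 0.24).

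Inside the cell, Gsk3b, the kinase of the destruction complex, had 5.55, 5.76, 5.94 and 5.73 in L63RhoA and 5.54, 5.56, 5.67 and 5.37 in EV (log2 ratio 0.21, limma adjusted p = 0.25). Dvl1 had 8.19, 7.68, 7.65 and 7.75 in L63RhoA and 8.06, 8.16, 7.99 and 7.94 in EV. L63RhoA replicate 1 was the highest of all 8 arrays and the other 3 L63RhoA arrays were below every EV array. The log2 ratio of Dvl1 was -0.22 (limma adjusted p = 0.30) and -0.34 without L63RhoA replicate 1 (adjusted p = 0.035), and its dimmer probe gave -0.15. Without any one other array Dvl1 did not pass (adjusted p 0.27 to 0.53). Dvl2 and Dvl3 were detected on no array. Apc had a log2 ratio of -0.11 (adjusted p = 0.77).

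The Tcf factors were both lower on average, without passing the test. Tcf7l1 had 5.97, 5.91, 5.99 and 5.84 in L63RhoA and 6.15, 6.43, 5.80 and 6.27 in EV. EV replicate 3 was below every L63RhoA array and the other EV arrays were above them all, with a log2 ratio of -0.24 (limma adjusted p = 0.27), or -0.36 without EV replicate 3 (adjusted p = 0.048). Without any one other array Tcf7l1 did not pass (adjusted p 0.23 to 0.55). Tcf7l2 had 6.38, 5.96, 5.97 and 5.94 in L63RhoA and 6.03, 6.46, 6.22 and 6.46 in EV (log2 ratio -0.23, adjusted p = 0.30). Its dimmer probe gave -0.32 (adjusted p = 0.21, adjusted over probes). That probe was detected on 1 L63RhoA array and 3 EV arrays. The filter therefore favoured its being lower in L63RhoA, and its ratio is no support for a direction. Lef1 was detected on 2 L63RhoA arrays and 1 EV array and was not tested. Of the non-canonical branch, the polarity gene Vangl2 had 6.42, 7.18, 7.02 and 7.19 in L63RhoA and 6.84, 6.39, 7.22 and 6.19 in EV (log2 ratio 0.29, adjusted p = 0.45). As in Porcn, L63RhoA replicate 1 was the lowest of its group and EV replicate 3 the highest of its own. Daam1, a formin that binds Dvl, had a log2 ratio of 0.26 (95% CI -0.22 to 0.74) and Vangl1 0.03 (95% CI -0.19 to 0.24).

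**Figure D3:**
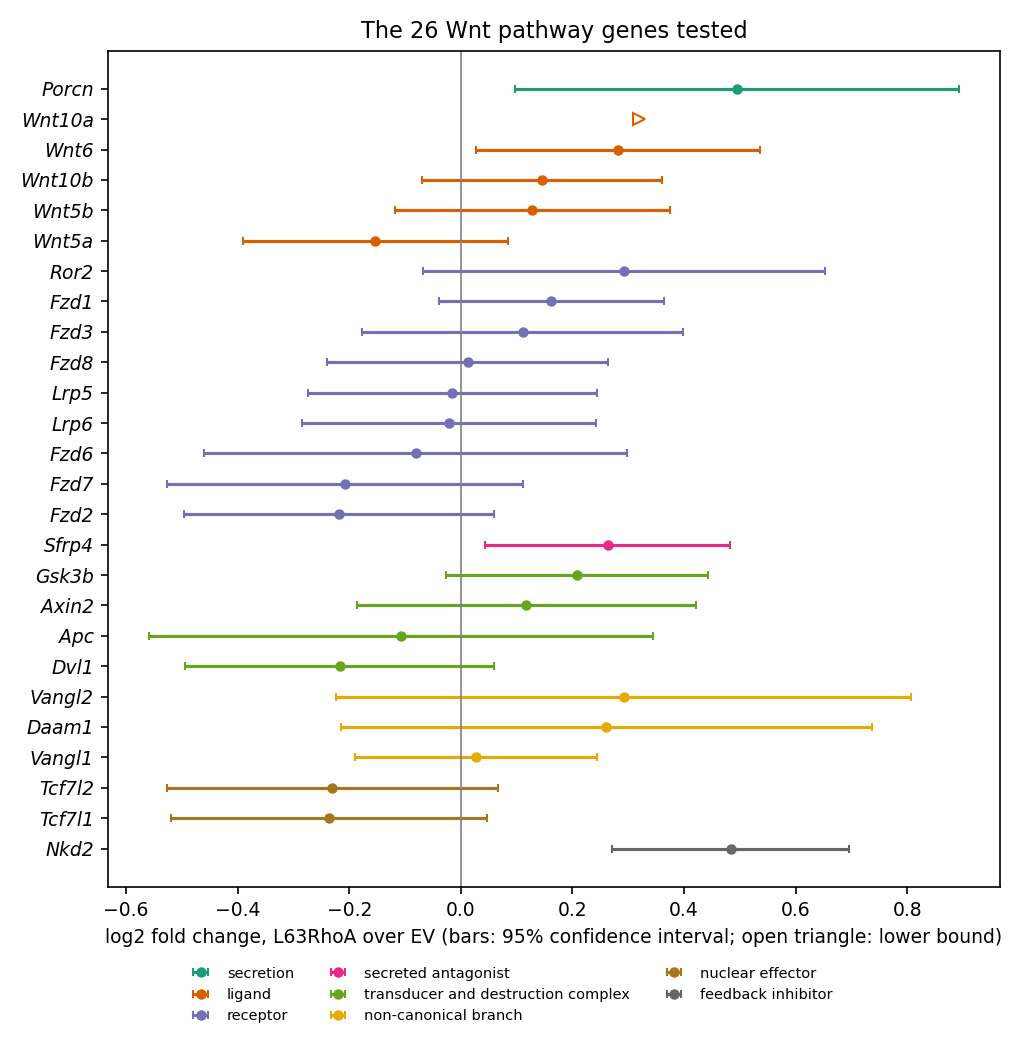
Log2 ratio of L63RhoA to EV (x axis) for each of the 26 Wnt genes tested (y axis), coloured by role, with 95% CIs from limma as bars. An open triangle, without sampling error, marks the lower bound for Wnt10a, which was detected on no EV array. The unadjusted intervals of Porcn, Wnt6, Sfrp4 and Nkd2 lie above 0, and those of 21 genes include 0.

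Axin2, a direct target of β-catenin in many tissues, had 5.08, 4.80, 5.09 and 4.79 in L63RhoA and 4.78, 5.10, 4.49 and 4.93 in EV. The L63RhoA values lay within the range of the EV values (log2 ratio 0.12, 95% CI -0.19 to 0.42, limma adjusted p = 0.61). Of 21 reported β-catenin target genes on the array, 10 were tested. Apcdd1 and Ccn4 rose and none fell, where 0.383% of all genes rose and 0.323% fell, with a median log2 ratio of 0.17 over the 10, against 0.01 over all genes. Without regard to the threshold, 6 of the 10 were higher and 4 lower. The lower ones were Cd44 (log2 ratio -0.33, limma adjusted p = 0.17), Tnfrsf11b (-0.30, adjusted p = 0.25), Jag1 (-0.22, adjusted p = 0.46) and Myc (-0.06, adjusted p = 0.88). Apcdd1, a membrane inhibitor of Wnt signalling, had 6.70, 6.84, 6.86 and 6.75 in L63RhoA and 5.96, 6.35, 6.20 and 6.27 in EV. Its groups did not overlap (log2 ratio 0.59, standard error 0.10, limma adjusted p = 0.032). It also passed without L63RhoA replicate 1 (adjusted p = 0.016), without EV replicate 3 (adjusted p = 0.026) and without EV replicate 2 (adjusted p = 0.049), but not without L63RhoA replicates 2, 3 or 4 or EV replicates 1 or 4, each left out alone (adjusted p 0.073 to 0.14). Ccn4, a matrix protein gene also called Wisp1, had a log2 ratio of 0.52 (adjusted p = 0.048), whereas its dimmer probe gave 0.05 (adjusted p = 0.84, adjusted over probes). Without any one array other than L63RhoA replicate 1 and EV replicate 3, Ccn4 did not pass (adjusted p 0.13 to 0.19). Notum, a secreted enzyme that removes the lipid from Wnt ligands, had 5.52, 5.39, 5.56 and 4.91 in L63RhoA and 5.14, 4.56, 4.83 and 4.69 in EV (log2 ratio 0.54, adjusted p = 0.11). Ccnd1, the cyclin D1 gene, had a log2 ratio of 0.29 by its brightest probe (adjusted p = 0.15) and of -0.38 by another. The targets Lgr5, Sp5, Znrf3 and Nkd1 were detected on no array.

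Of 22 other extracellular and membrane regulators on the array, 10 were tested, and Apcdd1 rose and none fell (0.383% and 0.323% of all genes), with a median log2 ratio of 0.16. Rspo3, a secreted enhancer of Wnt signalling, had 5.83, 5.85, 6.12 and 5.70 in L63RhoA and 5.47, 5.28, 5.60 and 5.23 in EV, without overlap (log2 ratio 0.48, limma adjusted p = 0.087). Gpc4, a cell surface glypican, had 6.37, 6.36, 6.51 and 6.75 in L63RhoA and 7.07, 6.92, 6.83 and 7.09 in EV, also without overlap (log2 ratio -0.48, adjusted p = 0.080). Kremen1, a receptor for Dkk proteins, had a log2 ratio of -0.39 (adjusted p = 0.11). Without L63RhoA replicate 1 and without EV replicate 3 the count of regulators that passed was 4 in each case, where 15.7% and 11.4% of all genes passed.

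Of 24 other core pathway genes on the array, 18 were tested and none passed from limma. At an unadjusted p under 0.05 there were 11 (7 higher and 4 lower), where 24.4% of all genes met it. Csnk1d and Csnk1g2 were counted higher by their brightest probes. Their dimmer probes gave 0.28, -0.04, -0.23 and -0.27 for Csnk1d and -0.09 and -0.27 for Csnk1g2. The methods' t-test gave 9 without adjustment, where 1615 of the 8360 genes met it, and none with it. Without L63RhoA replicate 1 and without EV replicate 3, 5 core genes passed in each case (15.7% and 11.4% of all genes). Ctnnb1, the gene of β-catenin itself, had a log2 ratio of 0.02 (standard error 0.08, adjusted p = 0.91), and its dimmer probe gave -0.13 (adjusted p = 0.56, adjusted over probes). Pygo2, a nuclear partner of β-catenin, had 10.17, 10.32, 10.22 and 10.43 in L63RhoA and 9.86, 9.21, 9.97 and 9.35 in EV (log2 ratio 0.69, adjusted p = 0.085). Chd8 had 0.40 (adjusted p = 0.11), the tankyrase gene Tnks -0.30 (adjusted p = 0.11) and the corepressor gene Tle5 -0.51 (adjusted p = 0.13). Tnks, counted among the 4 lower, was detected on 5 arrays. Its values in L63RhoA replicates 2, 3 and 4 (4.38, 4.52 and 4.43) lay below the lowest detected signal there (4.63, 4.66 and 4.66). The filter therefore favoured its being lower in L63RhoA, and its ratio is no support for a direction. Of 9 tested genes among 16 other genes of the non-canonical branch on the array, none had an unadjusted p under 0.05 with limma (24.4% of all genes). By the methods' t-test 1 had, where 1615 of the 8360 genes did. Celsr1, an atypical cadherin of planar polarity, had the highest log2 ratio at 0.35 (adjusted p = 0.23), and Rac1, Mapk9 and Scrib had 0.21, 0.16 and -0.25 (adjusted p 0.24 to 0.40).

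**Figure D4:**
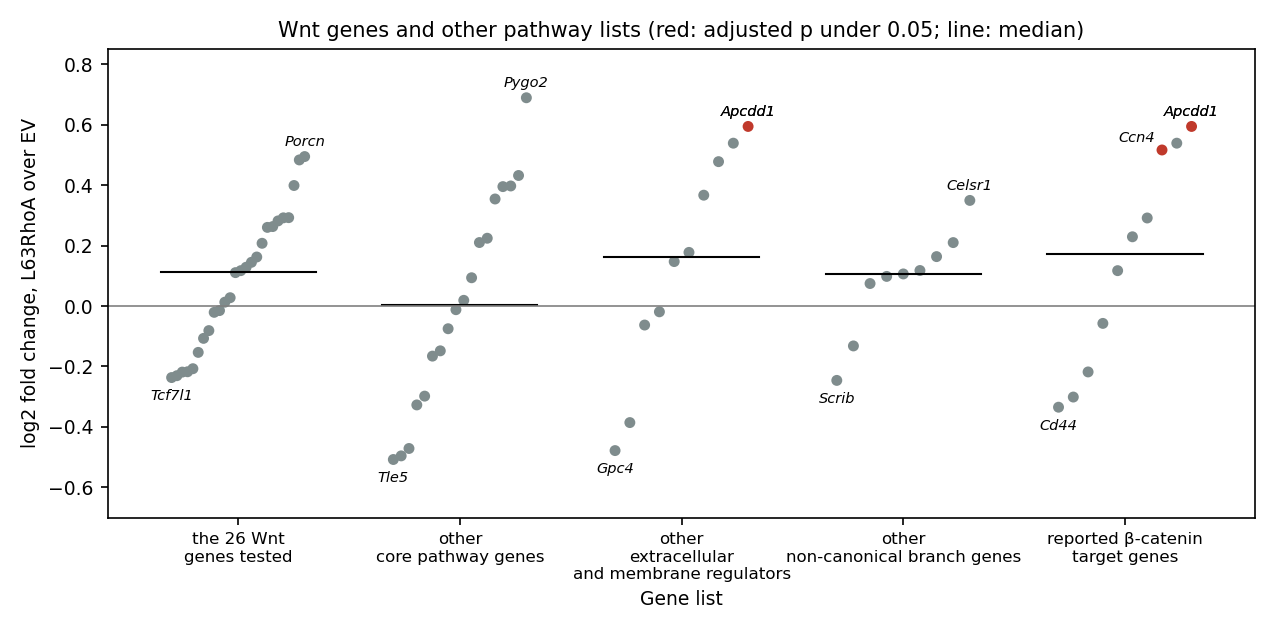
Log2 ratio of L63RhoA to EV (y axis) for the 26 Wnt genes and 4 other lists of pathway genes (x axis), a point for each tested gene and a line at each list's median. Red points passed an adjusted p under 0.05 from limma, and these were Apcdd1, which is on 2 lists, and Ccn4.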

How the data were processed

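RNA from 4 L63RhoA and 4 EV samples was measured. Deposited signal intensities on a linear scale, extracted with GenomeStudio (version not given in the sources used here), came with detection p-values, also deposited. The methods call them background corrected, but the lowest was 75.2. The authors' processed values were log2 and quantile normalized. Of 25697 probes, 23978 carried 1 gene symbol in the platform annotation, 0 several and 1719 none, and symbols were updated through the RefSeq gene table of GRCm38.p6 for 23962. Here the neqc function (limma 3.58.1, R 4.3.3, offset 16) corrected them for background and set them on common quantiles. Each of 8360 genes was represented by its brightest probe among the 12349 detected (p under 0.05) on at least 4 arrays, and tested with limma (two-sided, Benjamini-Hochberg over genes). The fit was tested on simulated data with independent errors, unlike the arrays, which share a component within groups. It recovered 57 of 100 changes of log2 0.5 and 88 of 100 changes of log2 1, with 12 false calls. Changes of the size measured in the Wnt genes can therefore be missed. The number of arrays limits the precision.

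The members and lists were chosen with earlier results of these data known. Named were the 12 members with the smallest p, the extremes of each role and up to 4 genes of each list with the smallest p. Wls, Ctnnb1, Tek, the lower β-catenin targets and other members were named as context. Wnt10a was bounded with the lowest normalized signal among probes detected on each array. Alternatives were median scaling, processed values as deposited by the authors, intensities without further correction, 3 other filters, a variance trend, the replicate block, array weights, the methods' t-test, other uses of a gene's probes, and leaving out each array. The study's own array p-values came from permutations, which were not repeated here.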

Additional observations from a re-analysis of the deposited data

Results flagged for a closer look

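Among 82 groups of 4 arrays (the 26 Wnt genes and other genes of the other lists, in each condition), 3 held an array whose distance from the others was large by Dixon's test, where chance flags about 1 in 20. Tcf7l2 read 6.38 in L63RhoA replicate 1, and 5.94 to 5.97 in the other L63RhoA arrays. Fzd1 read 6.18 in EV replicate 1, and 5.98 to 6.00 in the other EV arrays. Ccnd1 read 11.83 in EV replicate 3, where the other EV arrays lay between 11.53 and 11.57.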

How the results depend on the processing

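The count of Wnt genes that passed (0) was 1 without a filter on dim probes, with detection on all 8 arrays, with a detection p under 0.01 and with the mean of a gene's probes. This was Nkd2 each time, where 0.392% to 0.843% of all genes passed. The count was 4 with array weights, and 3 by the methods' t-test without adjustment, where 1615 of the 8360 genes met it. At a false discovery rate of 20% the count was 5, and the share of all genes, given in brackets from here, was 23.6%. The count was 3 on the authors' processed values (24.9%), without further background correction (24.9%), with median scaling (8.61%), with a detection p under 0.01 (25.6%) and with a variance trend (27%). It was 2 without a filter (5.96%), with detection on all 8 arrays (26.8%) and by the adjusted t-test (9.01%), and 14 with array weights (49.2%). Array weights were 0.408 for L63RhoA replicate 1, 0.554 for EV replicate 3 and 1.08 or more elsewhere, and 25.1% of all genes then passed. Leaving out each array gave 0 to 4 Wnt genes that passed (0.206% to 15.7% of all genes), and 1 to 13 at 20% (1.09% to 43.2%). Deviations from the group means correlated at -0.23 to 0.27 between same-numbered samples and at -0.59 to 0.42 between differently numbered ones. With so few arrays this cannot tell whether same-numbered samples shared an experiment. With a replicate block 18 genes passed, 3 Wnt genes met the rate of 20% (15.8% of all genes), and 0 extracellular regulators and 0 β-catenin targets passed.

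Over all genes, 1.66% passed with a variance trend, 0.73% with median scaling, 25.1% with array weights and 0.323% by the adjusted t-test. Among the other lists, core genes that passed (0) numbered 1 with a variance trend, 8 with array weights, 9 by the unadjusted t-test and 0 to 5 with an array left out. Extracellular regulators (1) numbered 0 with median scaling and by the adjusted t-test, 5 with array weights and by the unadjusted t-test, and 0 to 4 with an array left out. Other genes of the non-canonical branch (0) numbered 2 with array weights, 1 by the unadjusted t-test, and 0 to 1 with an array left out. The β-catenin targets (2) numbered 0 with median scaling and by the adjusted t-test, 6 with array weights, 1 with the mean of a gene's probes and with each probe on its own, 4 by the unadjusted t-test, and 0 to 3 with an array left out. The median log2 ratio of the Wnt genes (0.11) was 0.0371 on the authors' values, 0.0370 without further correction, 0.0139 without a filter, and 0.0168 to 0.143 with an array left out.

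Among the genes carried through these alternatives, another probe reversed the log2 ratio of Porcn (-0.19), Wnt5a (0.15), Mapk9 (-0.0243) and Ccnd1 (-0.38), and array weights that of Vangl1 (-0.0183). Some list genes that were not carried through, such as Ctnnb1 (-0.13), also had a probe of the opposite sign. Leaving out an array reversed genes near 0, with ranges of -0.236 to 0.0337 for Fzd6, -0.0250 to 0.0870 for Vangl1, -0.0870 to 0.0649 for Lrp6, -0.119 to 0.0623 for Lrp5 and -0.0583 to 0.0772 for Fzd8. The cause was not tested. Of the other values under these alternatives, 19 were no longer past the threshold and 41 newly so. Signal near background limits Wnt10a, Sfrp4, Wnt6, Fzd2, Fzd3, Fzd8 and Apc, which were detected on 4 to 6 arrays. It also limits the list gene Tnks, detected on 5 arrays.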

Other observations

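Wnt4 and Wnt7b were detected on too few arrays to be tested. The Wnt4 probe with detections was detected on 2 L63RhoA arrays and 0 EV arrays, with log2 intensities of 4.87, 4.33, 4.22 and 4.77 in L63RhoA and 4.29, 4.29, 4.39 and 4.25 in EV, whereas the other Wnt4 probe was detected on 0 arrays. The Wnt7b probe with detections was detected on 1 L63RhoA array and 1 EV array. Of the ligand pairs that lie next to each other in the genome, Wnt6 and Wnt10a on chromosome 1 were both tested, Wnt10b and Wnt1 on chromosome 15 in part, and the pairs Wnt3a with Wnt9a and Wnt9b with Wnt3 on chromosome 11 not at all.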
